A study of Bos taurus with 4 samples.

Results

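The genes described here make and load the peptides that class I major histocompatibility (MHC) molecules show at the cell surface. They are the 3 inducible catalytic subunits of the immunoproteasome (PSMB8, PSMB9, PSMB10), both subunits of its activator PA28 (PSME1, PSME2), the peptide transporter (TAP1, TAP2), its partner tapasin (TAPBP), the class I light chain (B2M) and NLRC5, a transactivator of class I genes. They were chosen by gene name. Of these 10 genes, 9 had a probe on the array and were tested, among 17623 genes tested in all. They carried 22 of the 43653 probes. No probe bore the name NLRC5, and that gene was not analysed here.

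The cells were bovine intramuscular preadipocytes, which are precursors of the fat cells found inside skeletal muscle. RNA was taken from confluent cultures at day 0, before adipogenic stimulation, and after 6 days in adipogenic medium. That medium held insulin at 50 ng/mL, the glucocorticoid dexamethasone at 0.25 µM, octanoate at 5 mM, acetic acid at 10 mM, fetal bovine serum at 10%, penicillin and streptomycin, and was renewed every 2 days. Of the day 6 groups, the day 6 control had nothing added, and the others had either all-trans retinoic acid (ATRA, 1 µM) or its isomer 9-cis retinoic acid (9cRA, 1 µM). No group spent 6 days outside the adipogenic medium, so the medium and the time in culture cannot be told apart.

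The proteasome is the barrel-shaped protease that degrades proteins in the cytosol and nucleus. Interferon gamma and other immune signals are known to replace its 3 constitutive catalytic subunits (PSMB5, PSMB6, PSMB7) with PSMB8, PSMB9 and PSMB10, which shifts the cuts towards peptides that class I molecules bind. PA28 caps the barrel, the TAP1-TAP2 transporter carries peptides into the endoplasmic reticulum, tapasin bridges transporter and class I molecule, and B2M completes that molecule. Non-immune cells, preadipocytes among them, express this machinery at a basal level.

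Each group was hybridised to 3 arrays of 1 colour (12 arrays in all), and each group is 1 sample in the labels. Nothing says that the 3 arrays held separate cultures, so p-values rest on how far those arrays scatter, and that scatter may be purely technical. Signals are log2 values above or below the 75th percentile of their array (n = 3 arrays per group, with SD), and differences are log2 with their SE. Adjusted p-values are those of limma after Benjamini-Hochberg adjustment over all genes tested, and a gene was called at an adjusted p under 0.05. The share of spots well above background ran from 64.8% to 74.0%, lowest on day 6 control array 1. The arrays lay on 3 slides. On slide 1, day 6 control array 1 lay with all of day 0. Slide 2 had day 6 control arrays 2 and 3 beside ATRA arrays 1 and 2, and slide 3 had ATRA array 3 beside all of 9cRA. In bulk RNA, fewer cells of a type and less RNA per cell cannot be told apart.

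The probes behind the main findings are printed here from the array files, in the sense of the mRNA and 5′ to 3′. The 3 inducible subunits fell most of the 9 genes over culture. Shown are probes of these subunits and the 3 TAP1 probes, of which 1 was called with the retinoids. Each is 60 bases long and reads without a stop codon in at least 1 frame.
PSMB8 (from base 318 of the mRNA): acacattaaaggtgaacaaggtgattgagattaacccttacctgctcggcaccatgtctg
PSMB8 (from base 756): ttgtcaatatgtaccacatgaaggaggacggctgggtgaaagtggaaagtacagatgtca
PSMB9 (from base 340): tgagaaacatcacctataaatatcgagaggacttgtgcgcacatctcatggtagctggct
PSMB10 (from base 312): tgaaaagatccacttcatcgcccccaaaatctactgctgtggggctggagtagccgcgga
TAP1 (from base 562): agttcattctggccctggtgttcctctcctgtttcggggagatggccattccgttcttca
TAP1 (from base 1423): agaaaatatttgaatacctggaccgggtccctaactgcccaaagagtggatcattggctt
TAP1 (from base 1779): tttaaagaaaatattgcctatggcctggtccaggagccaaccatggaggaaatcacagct

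Over culture, meaning from day 0 to the day 6 control, 7 of the 9 genes fell, 0 rose and TAP2 and TAPBP were not called. Among all genes tested 31.3% were called lower and 31% higher. With ATRA 8 of the 9 genes rose against the day 6 control and 0 fell, where 23.7% of all genes were called higher and 22.4% lower. With 9cRA the count was again 8 higher and 0 lower, against 24.8% and 21.8% of all genes. B2M was the gene not called with either retinoid. The median difference of the 9 genes was -0.92 over culture (0.00 over all genes), 0.71 with ATRA (0.05) and 0.72 with 9cRA (0.06). These comparisons share the day 6 control arrays, so a low reading there lowers the culture difference and raises both retinoid differences.

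**Figure D1:**
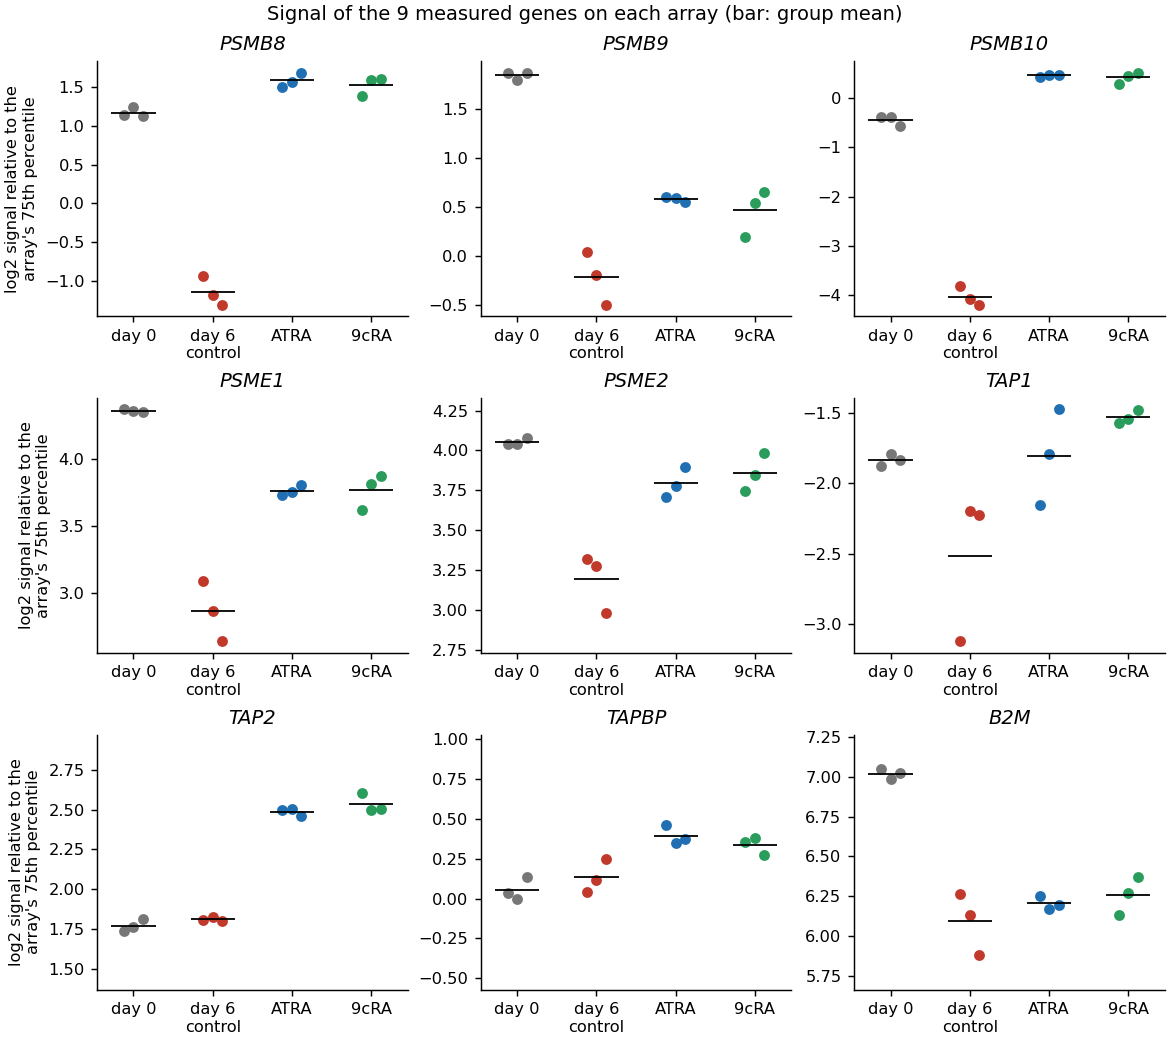
Signal of each of the 9 measured genes on each of the 12 arrays (y axis, log2 against the 75th percentile of the array; x axis, group; points are arrays and the bar is the mean of 3). The PSMB8 and PSMB10 arrays of the day 6 control lie below those of every other group, while the B2M arrays of the 3 day 6 groups overlap.

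The catalytic subunit PSMB10, which takes the place of the trypsin-like subunit PSMB7, differed most among the 9 genes. Its probe crosses an exon junction on chromosome 18 (35542097 to 35542267, reverse strand, UMD3.1). PSMB10 read -0.39, -0.39 and -0.56 at day 0, and -3.82, -4.08 and -4.19 in the day 6 control. It read 0.44, 0.47 and 0.47 with ATRA and 0.29, 0.46 and 0.52 with 9cRA. No array of the day 6 control came near another group, and both retinoid groups lay above every day 0 array. PSMB10 fell by 3.59 ± 0.10 over culture, a 12.02-fold decrease (limma adjusted p = 5.6e-10). It rose by 4.50 ± 0.10 with ATRA, 22.6-fold (adjusted p = 3.9e-10), and by 4.46 ± 0.10 with 9cRA, 21.9-fold (adjusted p = 4.5e-10). Ordered by log2 difference it was the 35th highest of 17623 differences with ATRA, the 36th highest with 9cRA and the 37th lowest over culture. Against day 0 it stood 0.91 ± 0.10 higher with ATRA (adjusted p = 1.1e-05) and 0.87 ± 0.10 higher with 9cRA (adjusted p = 1.6e-05).

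PSMB8, which replaces the chymotrypsin-like subunit PSMB5, had 3 probes on chromosome 23. The brightest (7113377 to 7113436, reverse strand, UMD3.1) read 1.14, 1.25 and 1.13 at day 0, and -0.95, -1.19 and -1.31 in the day 6 control. It read 1.51, 1.58 and 1.69 with ATRA and 1.39, 1.60 and 1.62 with 9cRA. The order of the group means was thus day 6 control, day 0, 9cRA and ATRA, with the arrays of both retinoid groups overlapping. PSMB8 fell by 2.32 ± 0.10 over culture (limma adjusted p = 1.5e-08). It rose by 2.74 ± 0.10 with ATRA, 6.68-fold (adjusted p = 1.1e-08), and by 2.68 ± 0.10 with 9cRA, 6.43-fold (adjusted p = 1.3e-08). The probe from base 318, nearest the 5′ end, rose by 1.79 ± 0.10 with ATRA and 1.85 ± 0.10 with 9cRA, and that from base 756 by 2.65 ± 0.17 and 2.61 ± 0.17. All 3 probes therefore rose with both compounds. Against day 0 the brightest probe was 0.42 ± 0.10 higher with ATRA (adjusted p = 0.0030) and 0.37 ± 0.10 higher with 9cRA (adjusted p = 0.0070). At the other probes that difference was 0.16 and 0.30 with ATRA and 0.22 and 0.26 with 9cRA, and none of these was called. With arrays scaled to their median the PSMB8 difference of 9cRA from day 0 was 0.23 and was no longer called.

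PSMB9, which replaces the caspase-like subunit PSMB6, lies beside TAP1 on chromosome 23 (brightest probe 7133537 to 7133596, forward strand, UMD3.1). That probe read 1.87, 1.80 and 1.87 at day 0, and 0.04, -0.20 and -0.49 in the day 6 control. It read 0.60, 0.60 and 0.55 with ATRA and 0.20, 0.55 and 0.66 with 9cRA. The retinoid arrays lay above every day 6 control array and below every day 0 array. PSMB9 fell by 2.06 ± 0.14 over culture (limma adjusted p = 4.3e-07). It rose by 0.80 ± 0.14 with ATRA (adjusted p = 8.3e-04) and 0.68 ± 0.14 with 9cRA (adjusted p = 0.0024). It remained lower than at day 0, with log2 differences of -1.26 ± 0.14 with ATRA and -1.38 ± 0.14 with 9cRA (adjusted p = 1.4e-05 and 7.2e-06). The PSMB9 probe printed above differed by -2.08 ± 0.08 over culture, 0.97 ± 0.08 with ATRA and 0.98 ± 0.08 with 9cRA, each called. A further probe under this name was not well above background on any of the 12 arrays.

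Within slide 1, where day 6 control array 1 could be set against the 3 day 0 arrays, the differences were -3.38 for PSMB10, -2.12 for PSMB8 and -1.80 for PSMB9. Within slide 2, with 2 arrays of each group, those of ATRA from the day 6 control were 4.60, 2.79 and 0.94. The 9cRA and day 6 control arrays shared no slide, nor did either retinoid group and day 0.

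The constitutive subunits that these 3 replace moved less over culture and were not called with either retinoid. PSMB5 fell by 0.71 ± 0.10 over culture (limma adjusted p = 1.3e-04), PSMB6 by 0.78 ± 0.12 (adjusted p = 1.8e-04) and PSMB7 by 0.28 ± 0.09 (adjusted p = 0.023). With ATRA they differed by -0.11, 0.04 and 0.04, and with 9cRA by -0.06, 0.02 and 0.03. The difference PSMB10 minus PSMB7 changed by -3.31 over culture, 4.45 with ATRA and 4.43 with 9cRA. PSMB8 minus PSMB5 changed by -1.61, 2.85 and 2.75, and PSMB9 minus PSMB6 by -1.29, 0.76 and 0.67. In all 9 of these comparisons the 3 arrays of one group lay on one side of the 3 of the other. The exact two-sided permutation p was 0.1 in each, the smallest that 3 arrays against 3 allow.

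**Figure D2:**
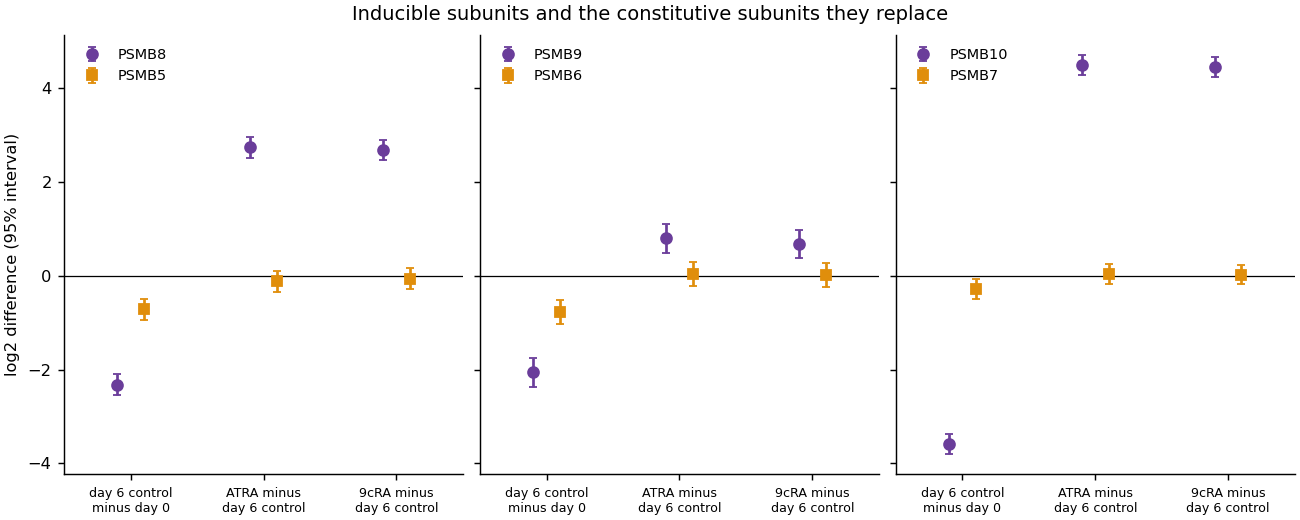
Log2 difference (y axis, with 95% interval) of each inducible subunit (circles) and of the constitutive subunit it replaces (squares) in 3 comparisons (x axis). PSMB8, PSMB9 and PSMB10 lie above 0 with both retinoids, while the intervals of PSMB5, PSMB6 and PSMB7 there include 0.

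The PA28 activator opens the barrel for peptides, and its subunits PSME1 and PSME2 have neighbouring genes on chromosome 10. The brightest PSME1 probe (20846834 to 20846893, reverse strand, UMD3.1) read 4.37, 4.36 and 4.35 at day 0, and 3.09, 2.87 and 2.64 in the day 6 control. It read 3.73, 3.76 and 3.80 with ATRA and 3.62, 3.81 and 3.87 with 9cRA. Both retinoid groups lay between the day 6 control and day 0 without touching either. PSME1 fell by 1.49 ± 0.10 over culture and rose by 0.90 ± 0.10 with each of ATRA and 9cRA (limma adjusted p = 5.4e-07, 4.7e-05 and 4.7e-05). Its other probe differed by -1.44, 0.96 and 0.95 in the same comparisons.

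PSME2 (20841747 to 20841805, forward strand) read 4.04, 4.04 and 4.08 at day 0, and 3.32, 3.28 and 2.98 in the day 6 control. It read 3.71, 3.78 and 3.90 with ATRA and 3.74, 3.85 and 3.98 with 9cRA. The groups stood in the same order as for PSME1, with smaller gaps. PSME2 fell by 0.86 ± 0.09 over culture (limma adjusted p = 1.8e-05) and rose by 0.60 ± 0.09 with ATRA (adjusted p = 4.3e-04) and 0.67 ± 0.09 with 9cRA (adjusted p = 2.3e-04). Against day 0, PSME1 was lower with ATRA and with 9cRA, by log2 differences of -0.59 ± 0.10 each. With slide as a fixed block these were -0.28 and -0.32 and were not called. PSME2 was lower with ATRA (-0.26 ± 0.09, adjusted p = 0.030), a call that 9 alternatives ended, and its difference of -0.20 ± 0.09 with 9cRA was not called but gained the call under 4 alternatives. The other PSME2 probe differed by -0.95, 0.69 and 0.64 over culture, with ATRA and with 9cRA. Against day 0 it was lower with ATRA (-0.26) and with 9cRA (-0.31, adjusted p = 0.012). Within slide 1 the culture differences were -1.27 for PSME1 and -0.74 for PSME2, and within slide 2 those with ATRA were 0.99 and 0.61.

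The transporter subunit TAP2 was not called over culture and rose with both retinoids. Its probe (chromosome 23, 7079740 to 7079799, reverse strand, UMD3.1) read 1.74, 1.76 and 1.81 at day 0, and 1.81, 1.83 and 1.80 in the day 6 control, which overlap. It read 2.50, 2.50 and 2.46 with ATRA and 2.61, 2.50 and 2.50 with 9cRA, above every other array. The difference of TAP2 over culture was 0.04 ± 0.04, with a 95% interval of -0.06 to 0.14, and was not called. TAP2 rose by 0.67 ± 0.04 with ATRA (limma adjusted p = 8.1e-07) and 0.72 ± 0.04 with 9cRA (adjusted p = 5.0e-07). It therefore also stood above day 0, by 0.71 and 0.76. The value within slide 2 was 0.69.

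TAP1, the other transporter subunit, had 3 probes on chromosome 23, all called lower over culture but only 1 called with the retinoids. The probe from base 562 crosses an exon junction (7125471 to 7125959, reverse strand, UMD3.1) and was the brightest. It read -1.87, -1.79 and -1.83 at day 0, and -3.12, -2.20 and -2.22 in the day 6 control. It read -2.16, -1.79 and -1.47 with ATRA and -1.57, -1.55 and -1.48 with 9cRA. Day 6 control array 1 stood well below the others of its group. On this probe TAP1 fell by 0.68 ± 0.23 over culture (limma adjusted p = 0.026) and rose by 0.71 ± 0.23 with ATRA (adjusted p = 0.031) and 0.98 ± 0.23 with 9cRA (adjusted p = 0.0062). Without day 6 control array 1 these values were -0.38 (adjusted p = 0.056), 0.40 (adjusted p = 0.065) and 0.68 (adjusted p = 0.0067). Within slide 1 the culture difference was -1.29, and within slide 2 that with ATRA was 0.24. With slide as a fixed block the 9cRA difference was 0.18 (adjusted p = 0.49).

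The TAP1 probes from base 1423 (7121382 to 7121441) and base 1779 (7119946 to 7120005) fell by 1.10 ± 0.09 and 1.19 ± 0.11 over culture. With ATRA they differed by 0.09 and 0.10, and with 9cRA by 0.14 and 0.19, none of them called. Within slide 2 their ATRA differences were 0.07 and 0.20, against 0.24 at the probe from base 562. Against day 0 both stayed lower with either retinoid, at -1.02 and -1.09 with ATRA and -0.967 and -0.998 with 9cRA, while the probe from base 562 was not called (0.02 and 0.30). In the same comparison but with slide as a fixed block, the latter turned to -1.06 with ATRA and -1.11 with 9cRA, both called. The gap between the probes from base 562 and base 1779 changed by 0.61 with ATRA (exact permutation p = 0.3) and by 0.80 with 9cRA (exact permutation p = 0.1, the smallest possible). A rise of TAP1 with a retinoid was thus called at 1 of its 3 probes. Its call with ATRA was also lost without ATRA array 2 (0.70, adjusted p = 0.074), without ATRA array 3 (0.54, adjusted p = 0.11), in a fit of the 2 groups (adjusted p = 0.12) and with no filter on dim probes (adjusted p = 0.055).

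**Figure D3:**
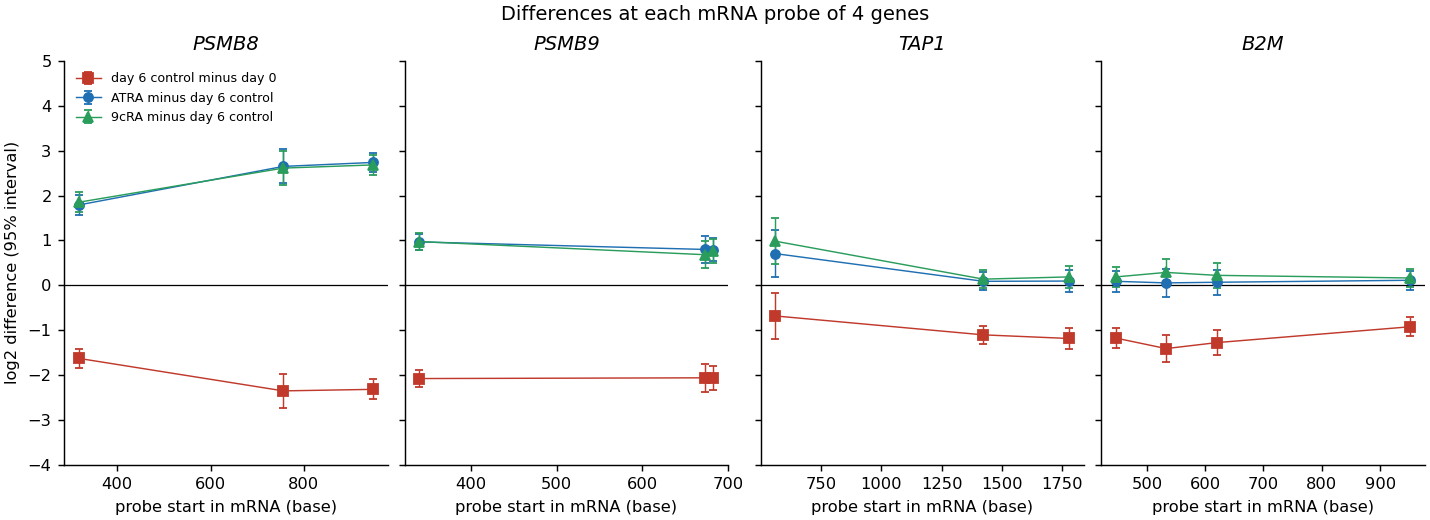
Log2 difference (y axis, with 95% interval) at each mRNA probe of 4 genes, against the first base of the probe in the mRNA (x axis), for day 6 control minus day 0 (squares), ATRA minus day 6 control (circles) and 9cRA minus day 6 control (triangles). Within each comparison the probes of a gene give the same sign. The retinoid differences of the B2M probes and of the TAP1 probes from base 1423 and base 1779 were not called.

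Tapasin (TAPBP), which holds the class I molecule at the transporter, moved least among the called genes. Its probe (chromosome 23, 7416333 to 7416392, reverse strand, UMD3.1) had means of 0.06 ± 0.07 at day 0, 0.14 ± 0.11 in the day 6 control, 0.40 ± 0.06 with ATRA and 0.34 ± 0.06 with 9cRA (SD, n = 3). The day 6 control arrays reached 0.25 and the lowest retinoid array read 0.27. TAPBP was not called over culture (0.08 ± 0.07) and rose by 0.26 ± 0.07 with ATRA (limma adjusted p = 0.0082) and 0.20 ± 0.07 with 9cRA (adjusted p = 0.028). The call with 9cRA was lost under 10 of the alternatives tried.

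B2M, the light chain shared by all classical class I molecules, fell over culture and did not pass the test with either retinoid. Its brightest probe (chromosome 10, 104126295 to 104126354, forward strand, UMD3.1) read 7.05, 6.98 and 7.02 at day 0, and 6.26, 6.13 and 5.88 in the day 6 control. It read 6.25, 6.17 and 6.19 with ATRA and 6.13, 6.27 and 6.37 with 9cRA. The 3 day 6 groups overlapped, and every one of their arrays lay below every day 0 array. B2M fell by 0.92 ± 0.09 over culture (limma adjusted p = 9.6e-06). With ATRA it differed by 0.11 ± 0.09 (95% interval -0.09 to 0.32, adjusted p = 0.34) and with 9cRA by 0.16 ± 0.09 (-0.04 to 0.37, adjusted p = 0.17). Without day 6 control array 1 the 9cRA difference was 0.25 (adjusted p = 0.045). The other 3 mRNA probes fell by 1.18 to 1.41 over culture, and their retinoid differences of 0.05 to 0.29 were not called. A probe on the opposite strand, the exact reverse complement of 1 of these, was well above background on 4 of 12 arrays.

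Over all member probes, 20 of 22 passed the filter on dim probes and were tested with 31207 probes. Over culture 18 were lower and 2 not called, where 33.1% of all probes were called lower. With ATRA and with 9cRA 14 were higher and 6 not called, where 21.9% and 22.7% of all probes were called higher. The 6 not called were 4 of B2M and 2 of TAP1.

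**Figure D4:**
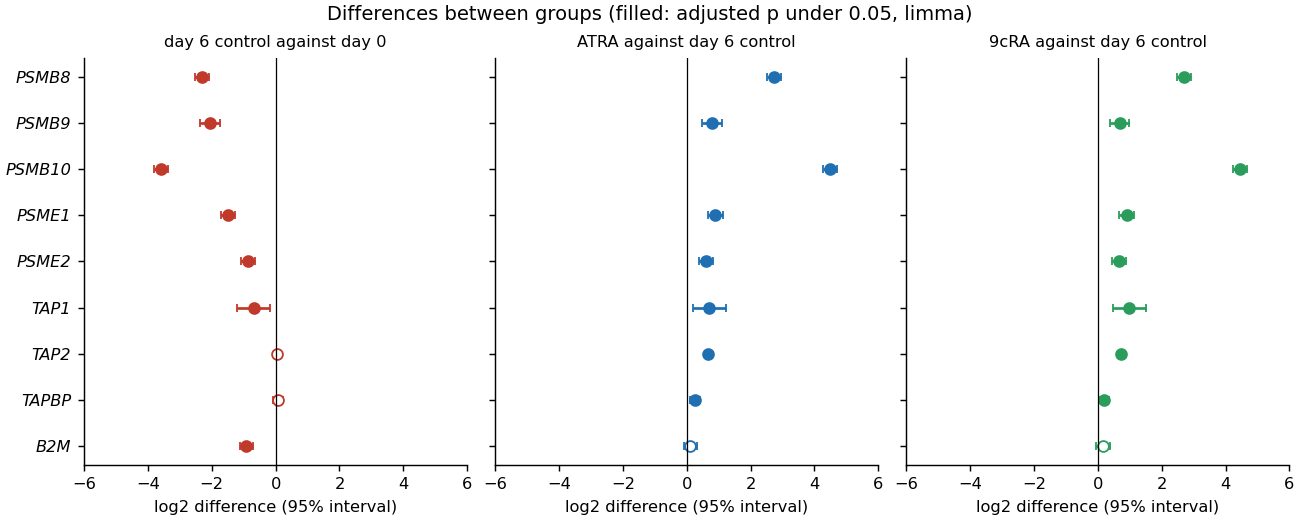
Log2 difference (x axis, with 95% interval) of the 9 genes (y axis) in 3 comparisons. Filled points passed an adjusted p of 0.05 (limma). PSMB10 lies farthest from 0 in each panel, and B2M is open with both retinoids.

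Set against day 0, the retinoid groups had called genes in both directions among the 9, in numbers near the shares over all genes. With ATRA, PSMB8, PSMB10, TAP2 and TAPBP were higher and PSMB9, PSME1, PSME2 and B2M lower, where 38.7% of all genes were called higher and 32.8% lower. With 9cRA the same 4 were higher and PSMB9, PSME1 and B2M lower, against 39% and 32.4% of all genes. With arrays scaled to their median this count was 2 higher and 4 lower, since PSMB8 and TAPBP (0.15, adjusted p = 0.094) lost the call and PSME2 (-0.33, adjusted p = 0.011) gained it. With slide as a fixed block TAPBP was not called against day 0 with ATRA (0.21) or 9cRA (0.17). B2M stood at -0.81 ± 0.09 with ATRA and -0.76 ± 0.09 with 9cRA. With 9cRA and slide as a fixed block B2M was -0.48 and not called. Scaling arrays to their median in place of the 75th percentile moved the median of all genes from 0.05 to -0.07 for ATRA and from 0.07 to -0.06 for 9cRA.

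ATRA and 9cRA are stereoisomers of 1 acid and differ in the geometry of a double bond in the side chain. They were compared at the same dose and day, as the only pair of compounds. Of the 9 genes 0 differed between them by limma at an adjusted p under 0.05, and 0 at an unadjusted p under 0.05. Over all genes 1847 of 17623 had an unadjusted p under 0.05 by limma, and 0.119% were called. A count of 0 among 9 genes is near these shares. The median of the 9 differences, ATRA minus 9cRA, was -0.0046. The 95% interval was -0.17 to 0.25 for PSMB10, -0.16 to 0.27 for PSMB8, -0.19 to 0.42 for PSMB9 and -0.23 to 0.22 for PSME1. It was narrowest for TAP2 (-0.15 to 0.05) and widest for TAP1 (-0.80 to 0.24). Differences within these intervals are not excluded. On slide 3, which held ATRA array 3 and all 9cRA arrays, the 9 differences lay between -0.08 for TAP2 and 0.16 for PSMB8.

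Other genes of the pathway were read from lists of known members. Among all genes tested, 31% were called higher and 31.3% lower over culture. The shares were 23.7% and 22.4% with ATRA, and 24.8% and 21.8% with 9cRA. Some of the list counts given below lie near these shares. A list of 9 genes held proteasome regulators, assembly factors and PSMB11, the catalytic subunit of the thymus proteasome. Of these, 4 fell and 0 rose over culture. Among them were the proteasome assembly factor POMP (-0.76 ± 0.09) and the proteasome inhibitor PSMF1 (-0.64 ± 0.05). With ATRA 1 of these 9 rose, namely PSMF1 (0.14 ± 0.05), and with 9cRA PSMF1 (0.19 ± 0.05) and PSMB11 (0.67 ± 0.23). The PSMB11 signal was low, at -4.19 ± 0.45 in the day 6 control and -3.52 ± 0.10 with 9cRA (SD, limma adjusted p = 0.036). Of 8 genes for peptide trimming and loading, 4 rose and 1 fell with each retinoid, and 2 rose and 4 fell over culture. The aminopeptidase ERAP1, which trims peptides in the endoplasmic reticulum, differed by -1.26 ± 0.13 over culture, 1.46 ± 0.13 with ATRA and 1.45 ± 0.13 with 9cRA. Its relative ERAP2 differed by -0.41, 1.46 and 1.47 (each SE 0.05), and the tapasin relative TAPBPL rose by 0.96 ± 0.06 with ATRA and 0.78 ± 0.06 with 9cRA. LNPEP had the smallest adjusted p of this list over culture and went the other way, rising by 0.71 ± 0.07 (limma adjusted p = 1e-05). It was not called with either retinoid.

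Of 7 class I heavy chains and relatives tested, 4 fell and 0 rose over culture, 5 rose and 1 fell with ATRA, and 5 rose and 0 fell with 9cRA. The probe named BOLA, for a bovine class I heavy chain, differed by -0.61 ± 0.06 over culture, 0.37 ± 0.06 with ATRA and 0.34 ± 0.06 with 9cRA. BOLA-NC1, a non-classical class I gene, differed by -0.59, 0.40 and 0.38 (each SE 0.05). These genes have near-identical copies, so a probe may read several of them. CD1D, which presents lipids, rose by 1.37 ± 0.13 with ATRA and 1.34 ± 0.13 with 9cRA. Of 10 class II genes tested, 1 rose with ATRA and 4 with 9cRA, 0 fell with either, and over culture 2 rose and 1 fell. The fall was that of CTSS, a lysosomal protease (-2.21 ± 0.10).

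Among regulators, IRF1, an interferon-induced activator of class I and immunoproteasome promoters, had the smallest adjusted p of its list over culture and with each retinoid. It read 1.33, 1.34 and 1.25 at day 0, and -0.67, -0.80 and -0.69 in the day 6 control. It read 2.87, 2.89 and 2.86 with ATRA and 2.85, 2.92 and 2.87 with 9cRA, so the retinoid arrays stood above all others. IRF1 fell by 2.03 ± 0.05 over culture (limma adjusted p = 2.5e-10) and rose by 3.59 ± 0.05 with ATRA (adjusted p = 5.7e-11) and 3.60 ± 0.05 with 9cRA (adjusted p = 7.8e-11). IRF8, a related factor, was not well above background on any day 6 control array, so its folds are bounds set against the lowest signal well above background. IRF8 was at least 4.34-fold lower there than at day 0, and at least 41.1-fold higher with ATRA and 35.3-fold higher with 9cRA than in the day 6 control. Over all 14 transcription factors listed, 3 rose and 8 fell over culture, 7 rose and 2 fell with ATRA, and 5 rose and 2 fell with 9cRA. RELB, a subunit of the factor NF-κB, differed by -2.12, 0.51 and 0.38 (each SE 0.05), and NFYA, which binds the Y box of MHC promoters, by 0.12, 0.48 and 0.49 (each SE 0.04). CIITA, the class II transactivator, differed by 0.05, -0.27 and 0.41 (each SE 0.76) and was not called.

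The interferon gamma gene (IFNG) stood well above background on 0 of 12 arrays. Of 8 interferon gamma pathway genes tested, 3 rose and 2 fell over culture, 4 rose and 2 fell with ATRA, and 5 rose and 0 fell with 9cRA. SOCS1, an inhibitor of this signalling, differed by -0.47, 0.52 and 0.52 (each SE 0.05), and SOCS3 rose by 1.57 ± 0.21 with ATRA and 1.68 ± 0.21 with 9cRA. SOCS3 was well above background on 1 array of day 0 and 2 of the day 6 control. IFNGR1 and JAK2 went the other way over culture and with ATRA. Means of IFNGR1 were -0.14 at day 0, 0.38 in the day 6 control, 0.04 with ATRA and 0.29 with 9cRA. Those of JAK2 were -1.57, -0.62, -0.90 and -0.80. Of the 7 genes of the interferon alpha and beta pathway, 2 rose and 4 fell over culture, and 5 rose and 0 fell with each retinoid. IRF7 differed by -2.56, 1.17 and 1.07 (each SE 0.11) and IRF9 by -1.05, 0.44 and 0.46 (each SE 0.05). The receptor chain IFNAR1 differed by 0.38, 1.19 and 1.30 (each SE 0.04).

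Markers of other cell types moved with some of these results. Of 16 leukocyte markers 11 were tested, of which 6 rose and 1 fell with each retinoid, and 2 rose and 2 fell over culture. Their summed level (log2) was 3.19 to 3.32 at day 0, 3.096 to 3.62 in the day 6 control, 3.82 to 3.94 with ATRA and 3.79 to 3.84 with 9cRA. The defining markers CD3E, MS4A1, ITGAM, AIF1 and CD163 each stood well above background on 0 of 12 arrays. PTPRC, the pan-leukocyte marker, differed by -0.48, 0.86 and 0.78, and CD14 by 1.89, 2.31 and 2.33. The summed adipocyte markers stood at 2.09 to 2.14 at day 0, 6.14 to 6.47 in the day 6 control, 1.78 to 1.82 with ATRA and 1.88 to 2.22 with 9cRA. FABP4 carried that sum, with differences of 4.34, -4.94 and -4.64. Of the 5 adipocyte markers tested, 3 rose and 1 fell over culture, and 0 rose and 2 fell with each retinoid. PPARG rose by 1.81 and LPL by 2.49 over culture, neither was called with a retinoid, and CIDEC fell in all 3 comparisons. ADIPOQ did not pass the filter. Of the 8 preadipocyte and stromal markers with a probe, 7 or 8 were well above background on every array of a group. CD34 was the exception at day 0 and in the day 6 control, where 0 arrays read it well above background. The same count was 4 or 5 of 7 for skeletal muscle markers and 9 to 11 of 16 for leukocyte markers, so it does not identify the cells. The summed level of the 8 stromal markers was 7.24 to 7.37 at day 0, 8.30 to 8.37 in the day 6 control, 7.28 to 7.43 with ATRA and 7.34 to 7.45 with 9cRA. Of these 8, 6 rose and 1 fell over culture, 3 rose and 3 fell with ATRA, and 5 rose and 3 fell with 9cRA. Endothelial markers summed to -2.69 to -2.49 at day 0, -2.36 to -1.88 in the day 6 control, -1.03 to -0.79 with ATRA and -1.25 to -0.87 with 9cRA. Skeletal muscle markers summed to 6.22 to 6.30 at day 0, 5.49 to 5.62 in the day 6 control and 4.32 to 4.54 over the retinoid arrays, and smooth muscle markers to 4.87 to 4.93, 3.90 to 3.93 and 2.77 to 2.98. DES and ACTA1 were the skeletal muscle markers that fell, while of the 5 tested 3 were higher and 2 lower than at day 0 with each retinoid. The part of any of these cell types in the results was not tested.

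A profile of the 9 genes, the median over genes of each one's deviation from its own mean, was used to look for genes of like pattern. The smallest root mean square difference from it over the 12 arrays, among 7117 named genes, was that of CERS1, a ceramide synthase (0.0747). ST6GALNAC4, a sialyltransferase (0.088), NUDT1, which hydrolyses oxidised nucleotides (0.0897), AP4S1, an adaptor subunit (0.0902), and ODF2, a centriole protein (0.0934), followed. Among the 9 genes PSME2 lay nearest the profile (0.08) and PSMB10 farthest (1.53). The likeness is a description, since these genes were picked for it out of many.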

How the data were processed

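RNA of 4 groups was measured on 12 arrays. The deposited files hold spot intensity from Agilent Feature Extraction 10.7.3.1, background-subtracted and detrended per the file headers, with probe positions on UMD3.1. Each holds 45220 spots, of which 1417 control spots were left out. Of 525636 probe spots 191 outliers were left out and 0 were saturated. A log2 table deposited by the authors (31205 probes, 1 column per group with medians of -0.01 to 0.02) differed by medians of 0.0025 to 0.0028 from array means of log2 signal minus the 75th percentile, centred per probe. This settled its scale, centring and direction, and it served as an alternative without a test.

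Here the signal was taken to log2 and each array's 75th percentile (1094 to 1359) subtracted. The probe with the highest mean stood for a gene, and it was tested if each of the 3 arrays of some group read it well above background. Limma 3.58.1 (lmFit, eBayes, two-sided) fitted group means to the 12 arrays in R 4.3.3, after a test on simulated data. For the dim group of a bound, each array gave the gene's own signal or, if higher, the lowest one well above background. Names came from the files and, for 28542 probes by accession and 138 by older symbol, from a RefSeq gene table of another assembly. The number of arrays limits the precision.

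The genes and lists were chosen with earlier results of these data known. List members named are those called in lists of up to 5 genes and up to 3 with the smallest adjusted p in longer ones, besides PSMB5, PSMB6, PSMB7, IRF1 and CIITA. A gene that the rule takes is not reported here. IFNG, IFNGR1, JAK2, PTPRC, PPARG, CD34, VWF and the markers below the filter were named after their values were seen. Genes of like pattern are the 5 nearest among genes with a symbol whose group means span at least 0.5, leaving out names that are locus numbers. Promoters and proteins were not analysed here. Alternatives were normexp background correction, median scaling, quantile normalization, no or a stricter filter, every probe fitted, slide as a block, fits of 2 groups, the authors' log2 table, and leaving out each array.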

Additional observations from a re-analysis of the deposited data

How the results depend on the processing

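The counts of called genes among the 9 kept within 1.5 times their value under all 21 alternatives, at 6 to 7 over culture, 7 to 8 with ATRA, 6 to 8 with 9cRA, 0 between the retinoids, 6 to 8 for ATRA and 5 to 9 for 9cRA against day 0. Of 1188 single differences under 22 alternatives (these 21 and the authors' log2 table) 1142 kept direction and side of the threshold, 38 lost the call, 6 gained it and 2 reversed. The reversals were TAP1 with slide as a fixed block, at -1.055 for ATRA against day 0 and -1.1113 for 9cRA against day 0. Day 0 shares no slide with either, so in that fit only day 6 control array 1 links day 0 to the other slides. On the brightest TAP1 probe that array read -3.12, against -2.20 and -2.22 on the others of its group. Why that array read low was not tested. Most lost calls were of TAP1, TAPBP with 9cRA and PSME2 against day 0. Counts over all genes moved by over 1.5 times with slide as a fixed block for 9cRA against the day 6 control (4080 against 8202) and against day 0 (7052 against 12574), and with every probe fitted (13566 and 13584 with ATRA and 9cRA against 8131 and 8202, 19253 over culture against 10985, 21971 and 21790 against day 0 against 12601 and 12574), where 31207 probes were tested. Between the retinoids the count was 0 to 47 against 21. Correlation within slides was 0.278. No paired analysis was made, because nothing says that arrays of the same number in different groups came from the same culture. The 3 arrays per group limit what small differences can show.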
